A study of Mus musculus with 2 samples.

Results

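The genes described here serve the entry of fatty acids into the liver cell, their binding inside it and their activation to acyl-CoA. They were chosen by name: the list held 10 genes, of which 8 have a value among the 8551 genes of the deposited table, and Fabp1 and Fabp5 were not analysed here. Liver RNA came from 9-week-old male mice on a C57BL/6 background, either wild type (the normal library) or db/db (the diabetic library). The db/db mice carry a defective leptin receptor in every tissue from birth, eat to excess and become obese and diabetic, so that the liver was not altered by itself. The mice came from a pair of suppliers, and which group came from which is not given. All mice had free access to chow, and livers were taken about 3 h into the light phase. Whether a library holds RNA of 1 mouse or a pool is not given in the sources used here. Each group has 1 library, so no difference below has a replicate check. By the steps of the values, the normal library rested on 10278531 clean tags and the diabetic one on 13508232.

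Fatty acids reach hepatocytes from blood as free acids bound to albumin or as lipoprotein lipid. CD36 at the cell surface and the FATP proteins of the SLC27 family help them across the membrane, and small FABP proteins carry them through the cytosol. Long-chain acyl-CoA synthetases (ACSL) couple them to coenzyme A, and the acyl-CoA binding protein encoded by Dbi holds the product for oxidation or for synthesis of glycerolipids. In fatty liver, CD36 is known as a gene induced through nuclear receptors of the PPAR, LXR and PXR kinds.

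What was counted were short tags next to a DpnII site (GATC) in the cDNA, and the deposited level, called TPM, is the tag number of a gene per 1000000 clean tags of its library. It is not divided by gene length, so levels of different genes were not ranked against each other. The tags themselves were not analysed here. To show which stretch of each gene such a tag reads, the reference tag was taken from GENCODE M21 transcripts with a RefSeq match: the DpnII site nearest the 3′ end with the bases after it, 20 bases in all. Capitals mark the DpnII site.

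Cd36: GATCtacaaaatgaaaactt
Slc27a2: GATCactgggacttttaaac
Slc27a4: GATCcgcctgctccagagtg
Fabp2: GATCcttaagctatacatga
Fabp4: GATCtttcttaataatgcat
Acsl1: GATCccggggacacacaatt
Acsl5: GATCaagaatattcactatt
Dbi: GATCggccggggctcttgga

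None of these 20 bases occurred in a GENCODE transcript of another gene, so each separates its gene from the paralogs of its family. In GRCm38 the Cd36 tag lies at chr5:17783283-17783302 on the minus strand, in the 3′ UTR within the last of 15 exons. It belongs to 3 of the 4 RefSeq-matched Cd36 transcripts, and the other one has a further site downstream. The Slc27a2 tag lies at chr2:126587771-126587790 on the plus strand, in coding sequence of the last of 10 exons, and that of Slc27a4 at chr2:29817438-29817457 on the plus strand, in the 3′ UTR. The Fabp2 tag at chr3:122899448-122899467 (plus strand) and the Fabp4 tag at chr3:10204217-10204236 (minus strand) both lie in the 3′ UTR of the last of 4 exons. Both synthetase tags lie in the 3′ UTR of the last exon on the plus strand, at chr8:46534681-46534700 for Acsl1 and at chr19:55297461-55297480 for Acsl5. The Dbi tag is in coding sequence and crosses from exon 2 of 4 into the next exon, so its ends at chr1:120116430-120119895 on the minus strand enclose an intron. In the longest Dbi transcript used this was the only DpnII site.

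Of the 8 genes, Cd36, Fabp4 and Dbi were higher in the diabetic library, and the remaining 5 lay within 1.5-fold as deposited. A gene was called when it differed at least 1.5-fold with a false discovery rate (FDR) under 0.001 in a two-sided exact binomial test on reads, adjusted over all 8551 genes. The test compares the 2 libraries and not the conditions. By this rule 3 of 8 genes were higher, against 22.9% of all genes, and 0 of 8 were lower, against 8.19% of all genes. By the fold alone the same 3 genes were higher, against 34.4% of all genes, and again 0 were lower, against 15.3%. The median log2 ratio of diabetic over normal was 0.38 over the 8 genes and 0.25 over all genes. Of the 8, 4 lay above the median of all genes and 4 below it, and without Cd36 the median of the remaining 7 was 0.23.

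Since the median of all genes was above 0, 4 other ways of scaling the libraries to each other were tried, which lowered each log2 ratio by 0.25 to 0.31. Of all clean tags, 37.1% fell on listed genes in normal and 44.4% in diabetic liver. The all-gene calls, 1955 higher and 700 lower as deposited, became 1135 to 1272 higher and 1147 to 1261 lower. Cd36 and Fabp4 stayed called under each of these scalings. Dbi fell under 1.5-fold under median-ratio scaling only.

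**Figure D1:**
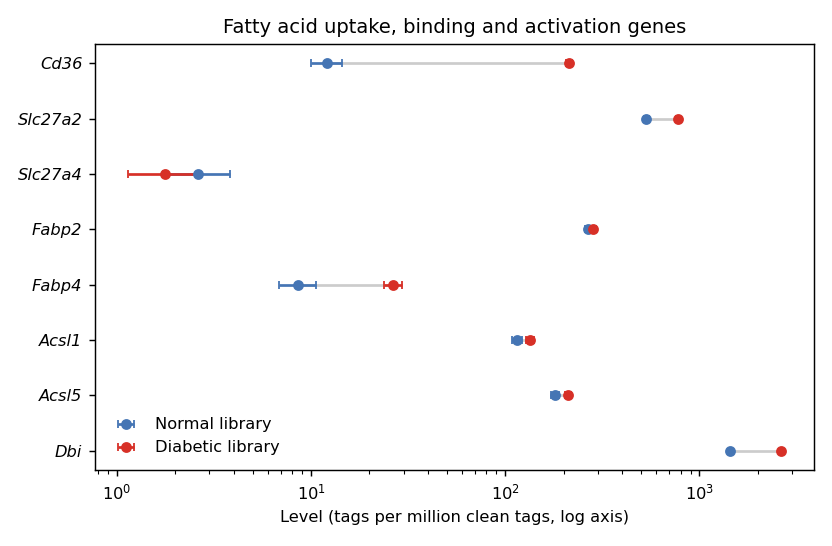
Level of each gene in the normal (blue) and diabetic (red) library, in tags per 1000000 clean tags (TPM) on a log axis. Points are 1 library each and bars are exact 95% Poisson intervals, which cover counting error only. Cd36 moved farthest, from 12.06 to 213.43 TPM, and the intervals of both libraries overlap for Slc27a4 and Fabp2.

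Cd36 (Entrez 12491) encodes the fatty acid translocase, a scavenger receptor that binds long-chain fatty acids at the plasma membrane. Its level was 12.06 TPM in normal liver (124 reads, 95% Poisson interval 10.03 to 14.4 TPM) and 213.43 TPM in diabetic liver (2883 reads, 205.7 to 221.4 TPM). The intervals were far apart. The level was 17.7-fold higher in the diabetic library (95% interval, 14.8-fold to 21.3-fold), a log2 ratio of 4.14. With genes at 3 reads or fewer set to 3 reads, this was the 30th highest ratio of the 8551 genes, and 99.6% of the genes had a lower one. Under the 4 other scalings the log2 ratio of Cd36 lay between 3.84 and 3.89.

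Macrophages and endothelial cells also express Cd36, so markers of both were read from the same libraries. Of 10 macrophage markers 8 were listed, with 0 called higher and 4 called lower, and their median log2 ratio was -0.86. Their summed level was 172.8 TPM in normal and 123.2 TPM in diabetic liver. The called macrophage genes were Emr1, the F4/80 antigen, from 8.95 to 4.37 TPM, Csf1r, the receptor of macrophage colony-stimulating factor, from 21.7 to 10.14 TPM, the haemoglobin scavenger receptor Cd163 from 20.53 to 10.07 TPM, and the pore-forming protein Mpeg1 from 47.28 to 29.17 TPM. The 4 not called were Cd5l (64.7 and 62.92 TPM), Cd68 (3.99 and 3.41 TPM), Clec4f (1.46 and 1.11 TPM) and Lyz2 (4.18 and 2.0 TPM). All 10 endothelial markers were listed, with 1 called higher (Kdr, the main VEGF receptor, 11.97 and 22.13 TPM) and 2 called lower (Tie1, 9.53 and 5.03 TPM, and the sinusoidal lectin Clec4g, 47.67 and 30.65 TPM). Their median log2 ratio was -0.24 and their summed level was 164.7 and 140.6 TPM. Besides Kdr, only Lyve1 among them had a log2 ratio above 0 (3.21 and 5.85 TPM, not called). In whole tissue, fewer cells of a type and less RNA per cell cannot be told apart. The part of these cells in the Cd36 difference was not tested.

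The tissue label was checked on hepatocyte markers, of which 4 of 6 were listed. Albumin (Alb) had 6801 TPM in normal and 6912 TPM in diabetic liver, and transferrin, listed as Trf, at 3333 and 3331 TPM. Transthyretin (Ttr) was at 256.9 and 239.3 TPM. These carriers of blood plasma lay within 1.5-fold, while Cps1, the first enzyme of the urea cycle, was called higher at 130.3 and 316.7 TPM.

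One promoter window of Cd36 in the RefSeq-derived table (GRCm38.p6, minus strand, chr5:17835897-17836146, the 250 bases before one of several annotated starts) is shown because Cd36 had the largest ratio of the 8 genes and because PPAR and RXR receptors bind direct repeats of AGGTCA with 1 base between the copies. Capitals mark matches to that repeat with at most 2 mismatches in its 12 fixed letters, and to GGGCGG, the core of Sp1 sites, on either strand.

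Cd36 promoter: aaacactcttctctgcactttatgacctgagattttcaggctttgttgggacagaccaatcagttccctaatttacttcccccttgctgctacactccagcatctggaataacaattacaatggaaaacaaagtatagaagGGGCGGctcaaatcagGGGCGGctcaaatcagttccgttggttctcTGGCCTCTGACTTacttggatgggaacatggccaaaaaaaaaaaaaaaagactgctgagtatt

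The window held 1 match to the repeat on the strand opposite to the gene, between 63 and 51 bases before the start, with 2 mismatches (AAGTCAGAGGCCA read along that strand). It also held GGGCGG on the strand of the gene, starting 109 and 93 bases before the start. No GENCODE transcript of Cd36 was found to begin at this start, so the distances rest on the RefSeq-derived start alone. Windows were at hand for 7 of the 8 genes, 9 windows in all, and Fabp4 had none. The repeat was present in 1 of the 9 windows, that of Cd36, and in 3.24% of 32851 windows of the same length over all genes. GGGCGG stood in 4 of the 9, those of Cd36, Slc27a2, Slc27a4 and one of Acsl1, and in 32.7% of all windows. TATAAA and CACGTG stood in 0 of the 9 windows, against 12.4% and 6.02% of all windows. These matches describe letters in a window and no binding was measured.

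Slc27a2 (Entrez 26458) encodes FATP2, which both takes up fatty acids and joins very long chains and bile acid precursors to coenzyme A. Normal liver had 532.66 TPM (5475 reads) and diabetic liver 773.45 TPM (10448 reads). That is 1.45-fold higher (95% interval, 1.41-fold to 1.501-fold), with an exact test FDR of 7.5e-113, and it was not called because it lay under 1.5-fold. Relative to the median of all genes its log2 ratio of 0.54 came to 0.29.

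Slc27a4 (Entrez 26569) encodes FATP4, the transporter best known from intestine and skin. It had few reads, 27 in normal (2.63 TPM) and 24 in diabetic liver (1.78 TPM). Its log2 ratio was -0.56 with a 95% interval of -1.42 to 0.28 and an exact test FDR of 0.279, so that no difference was detectable at this depth. The 4 other scalings gave -0.87 to -0.82, not called under any of them. The fold of Slc27a2 was 2.15 times that of Slc27a4 (95% interval of the odds ratio, 1.19 to 3.89), a comparison within each library that no scaling between the libraries can move.

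**Figure D2:**
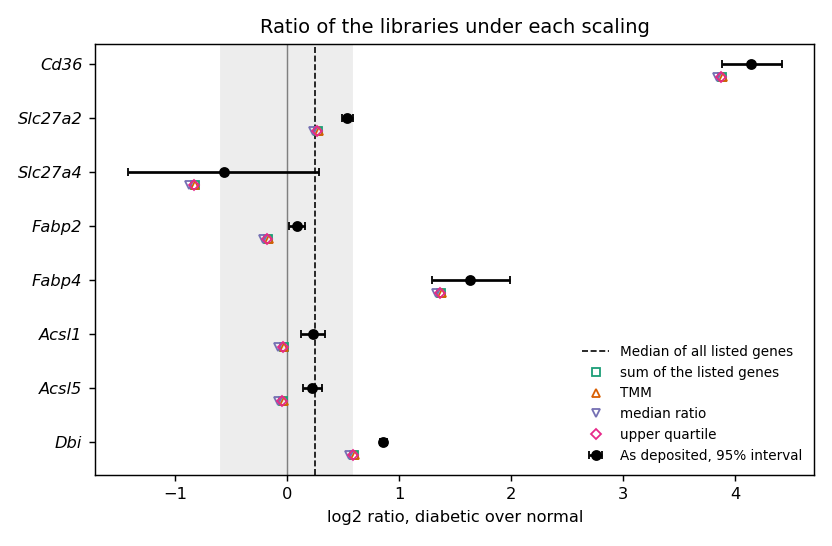
Log2 ratio of diabetic over normal for each gene as deposited, with its 95% Clopper-Pearson interval (black), and under 4 other scalings (open symbols). The grey band is 1.5-fold in either direction and the dashed line is the median of all listed genes, 0.25. Acsl1, Acsl5 and Fabp2 sit at or below that line, and their open symbols lie below 0.

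Fabp4 (Entrez 11770) encodes the adipocyte fatty acid binding protein, also found in endothelium and macrophages. Its level was 8.56 TPM in normal liver (88 reads) and 26.58 TPM in diabetic liver (359 reads). The diabetic library was 3.10-fold higher (95% interval, 2.45-fold to 3.97-fold), with a log2 ratio of 1.63 and an exact test FDR of 1.1e-24. The 4 other scalings gave log2 ratios of 1.33 to 1.38. With a variation of 40% assumed between samples, the call of Fabp4 was lost.

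Of 8 adipocyte markers 4 were listed, 3 of them called higher. The summed level of the 4 was 65.1 TPM in normal and 198.8 TPM in diabetic liver, and most of either sum was Car3 alone. Cidec, a lipid droplet protein also induced in fatty hepatocytes, had 2 and 176 reads. From these reads, with no floor, its log2 ratio was 6.07 with a 95% interval of 4.19 to 9.12. Cfd, adipsin, had 5 and 160 reads, and Car3, a carbonic anhydrase abundant in both fat and liver, went from 55.65 to 164.1 TPM. Cidec and Cfd, at 0.19 and 0.49 TPM in normal liver, reached the mean of 1 TPM needed for listing only through the diabetic library. At such normal levels a listed gene could only be higher in the diabetic library. Hormone-sensitive lipase (Lipe) was at 8.76 and 9.77 TPM. The 4 markers that define adipocytes most sharply, Adipoq, Plin1, Lep and Retn, were those not listed and so were not analysed here. The macrophage and endothelial lists, whose cells also make Fabp4, had medians below 0 as given above. The part of adipocyte transcripts in the Fabp4 difference was not tested.

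Fabp2 (Entrez 14079) encodes the intestinal type of binding protein. It was at 265.89 TPM (2733 reads) and 282.86 TPM (3821 reads) in the normal and diabetic libraries. The ratio was 1.06-fold (95% interval, 1.01-fold to 1.12-fold) with an exact test FDR of 0.0263, which did not pass the threshold. The log2 ratio of 0.09 turned to between -0.22 and -0.16 under the 4 other scalings. The fold of Fabp4 was 2.92 times that of Fabp2 (95% interval of the odds ratio, 2.29 to 3.75). Among 8 enterocyte markers only Apoa4 (105.4 and 652.9 TPM, called higher) and Mttp (3.79 and 6.74 TPM, not called) were listed, and both are also made by liver.

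Acsl1 (Entrez 14081) encodes the main long-chain acyl-CoA synthetase of fat, heart and liver, and Acsl5 (Entrez 433256) a related enzyme of mitochondria and the endoplasmic reticulum. Acsl1 had 115.0 TPM (1182 reads) in normal liver and 134.81 TPM (1821 reads) in diabetic liver. Its ratio was 1.17-fold (95% interval, 1.09-fold to 1.26-fold, exact test FDR 6.6e-05). Acsl5 was at 179.69 TPM (1847 reads) and 210.02 TPM (2837 reads) in the same order. This too was 1.17-fold (95% interval, 1.10-fold to 1.24-fold, exact test FDR 6.6e-07).

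Neither synthetase was called, and both turned slightly below 0 under the 4 other scalings, to log2 ratios of -0.08 to -0.02. The folds of both were alike within counting error, with an odds ratio of 1.003 for Acsl1 over Acsl5 (95% interval, 0.912 to 1.10).

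Dbi (Entrez 13167) encodes the acyl-CoA binding protein, which buffers acyl-CoA in the cytosol of most cells. Its level was 1444.95 TPM (14852 reads) in normal liver and 2625.95 TPM (35472 reads) in diabetic liver. The level was 1.82-fold higher (95% interval, 1.78-fold to 1.85-fold), a log2 ratio of 0.86. Under the other scalings the log2 ratio lay between 0.56 and 0.61, and at the lower end, 1.47-fold under median-ratio scaling, it was no longer called. Nor was it called with a variation of 40% assumed between samples.

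**Figure D3:**
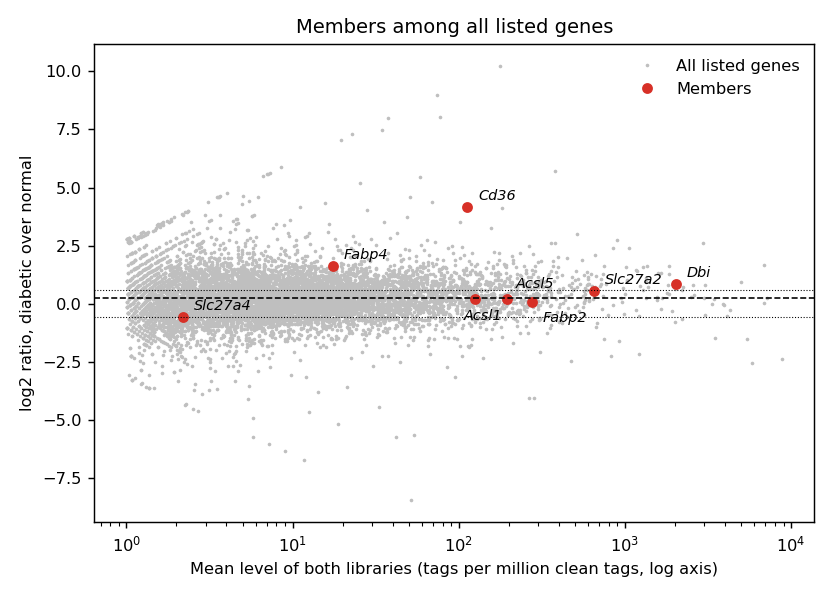
Log2 ratio of diabetic over normal against the mean level of both libraries (log axis) for all 8551 listed genes (grey) and the 8 genes (red). Dotted lines are 1.5-fold in either direction and the dashed line is the median of all genes. Cd36, Fabp4 and Dbi lie above the upper dotted line, and Slc27a4 lies among the genes of few reads.

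Other genes of the same steps were counted from fixed lists. The counts of these lists and of the marker lists stand beside 22.9% of all genes called higher and 8.19% called lower. Of 18 other transporters and binding proteins, 9 were listed, with 2 called higher and 0 lower, and a median log2 ratio of 0.25. Got2, the mitochondrial aspartate aminotransferase also described as a fatty acid binding protein of the plasma membrane, rose from 433.6 to 1042 TPM, 2.40-fold (95% interval, 2.32-fold to 2.49-fold). Slc27a3 had 2 and 25 reads, and a log2 ratio from these reads, with no floor, of 3.25 with a 95% interval of 1.25 to 6.37. At 0.19 TPM in normal liver, Slc27a3 was listed only through the diabetic library, so it could only be higher there. Slc27a5, the liver bile acid-CoA ligase FATP5, was at 527.8 and 477.8 TPM and was not called.

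Of 17 other acyl-CoA synthetases, 8 were listed, with 2 called higher and 1 lower, and a median log2 ratio of 0.40. The medium-chain enzymes Acsm1 and Acsm5 of mitochondria rose 2.71-fold (59.74 to 162.1 TPM) and 2.66-fold (10.9 to 29.02 TPM). Acss2, which activates acetate in the cytosol, fell from 145.7 to 93.5 TPM. Its log2 ratio was -0.64 (95% interval, -0.75 to -0.53). Acsl4, the isoform that prefers arachidonate, was at 6.32 and 6.51 TPM, within counting error of each other.

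Among 6 other proteins with an acyl-CoA binding domain 5 were listed, 2 called higher and 0 lower. Acbd4 rose 2.15-fold (7.2 to 15.47 TPM), and Peci, an enoyl-CoA isomerase with such a domain, rose 1.84-fold (51.08 to 93.94 TPM). Acbd5 of the peroxisome was at 264.7 and 340.9 TPM, under 1.5-fold.

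All 14 genes of fatty acid entry from lipoproteins were listed, with 6 called higher and 2 lower, and a median log2 ratio of 0.42. Vldlr, the VLDL receptor, was without a read in normal liver (0 reads) and had 34 in diabetic liver. It was thus listed only through the diabetic library and could only be higher there. With 3 reads taken as the floor, its level was 8.62-fold higher in the diabetic library. The lower limit of its Clopper-Pearson interval, from the reads with no floor, was 6.64-fold. Apoc2, the cofactor of lipoprotein lipase, rose from 506.4 to 1528 TPM. Of the lipases, Lpl fell from 15.57 to 9.18 TPM and Lipc, hepatic lipase, from 281.4 to 167.4 TPM, with log2 ratios of -0.76 and -0.75, while Lipg, endothelial lipase, was at 2.33 and 5.11 TPM, 2.19-fold higher but not called (exact test FDR 0.00183).

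Of 14 nuclear receptors and coactivators that sense fatty acids or share their targets, 11 were listed, with 5 called higher and 2 lower, and a median log2 ratio of 0.44. Pparg, the receptor that drives lipid storage, rose from 7.59 to 51.75 TPM, 6.82-fold (95% interval, 5.39-fold to 8.73-fold). Nr1i3, the receptor CAR, rose from 32.49 to 176 TPM, and Rxrg, a partner of PPAR receptors, from 3.02 to 7.7 TPM. Also called higher were Ppara (36.58 and 82.1 TPM, 2.24-fold) and the LXR gene Nr1h2 (14.5 and 24.87 TPM). The other LXR gene, Nr1h3 (88.44 and 86.17 TPM), and the PXR gene Nr1i2 (13.23 and 17.92 TPM) were not called. Nor was Rxrb (4.77 and 4.22 TPM), a further RXR gene beside Rxrg, and Rxra was not analysed here. Ppard fell from 13.52 to 5.55 TPM and Hnf4a, a master regulator of hepatocyte genes, from 96.8 to 46.19 TPM. Stellate cell markers, 5 of 6 listed, had 1 called higher (Col1a1, 3.11 and 9.4 TPM) and 1 lower (Reln, 12.84 and 7.11 TPM). Over all these lists 24 entries were called higher, and 7 of them fell under 1.5-fold in at least 1 of the 4 other scalings.

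**Figure D4:**
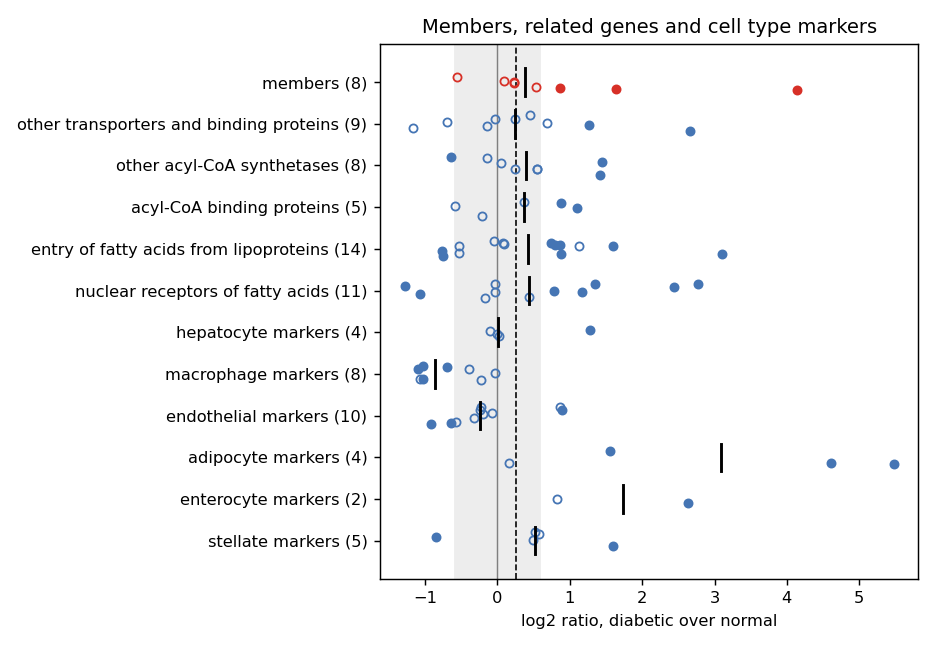
Log2 ratio of diabetic over normal for the 8 genes (red), related genes of the same steps and cell type markers (blue), with the number of listed genes in brackets. Filled points were called, open points were not, black bars are medians, genes with 3 reads or fewer are plotted as if at 3, the grey band is 1.5-fold in either direction and the dashed line is the median of all genes. All 8 macrophage markers lie below 0, while 3 of 4 listed adipocyte markers lie above the band. Of these 3, Cidec and Cfd were listed only through their diabetic level.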

How the data were processed

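Liver poly(A) RNA of 1 normal and 1 diabetic library was profiled by digital gene expression tags. The authors digested cDNA with DpnII, sequenced it on an Illumina 1G sequencer, compared clean tags with RefSeq and scaled them to RPM values per gene, deposited under the name TPM. The labels name the build mm9. The aligner and the treatment of tags shared by paralogs are not given in the sources used here. Genes with a mean under 1 TPM were absent, and 0.01 TPM was deposited for no tag. A gene without a row, such as Fabp1, was not taken to be low, since its level is not known here. The number of columns of sample values not used was 0.

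Reads were computed from the equal steps of the values (0.0973 and 0.0740 TPM per read), which gave 10278531 and 13508232 clean tags, with 3809707 and 5993204 reads on listed genes. Within 0.0065 TPM of a whole read were all 8513 values above the placeholder in the normal library, and all but 1 of 8537 in the diabetic library. Up to 3 reads, 0.292 and 0.222 TPM, are compatible with a count of 0. Ratio intervals are 95% Clopper-Pearson intervals and pair intervals are conditional odds ratio intervals. Both cover counting error only, and no variation between mice enters any interval or test.

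Named genes were the listed members, and of each related list up to 3 called genes with the largest change in each direction, of which 1 is not reported here. Slc27a5, Acsl4, Acbd5, Lipg, Ppara, Nr1h2, Nr1h3, Nr1i2, Rxrb and the marker Lyve1 were added after their values were seen. Of marker lists, the called genes and some of those not called were named. The members and lists were chosen with earlier results of these data known. Symbols were looked up through Entrez identifiers in a RefSeq table, where 8317 matched.

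Alternatives were 4 scalings (sum of listed genes, TMM trimming 30% and 5%, median ratio over genes of at least 10 TPM, upper quartile), the fold alone, a threshold of 2-fold, genes with a mean of 5 TPM or more, 1 TPM added to each value, the test of Audic and Claverie, and 10% or 40% of variation assumed between samples. On simulated reads of 8551 genes for this comparison, 147 of 200 genes changed 3-fold were called, with 0 unchanged genes called. The simulated reads held counting error only, without variation between mice or a shift of scale. They therefore cannot show how many calls in the real libraries are false. Software versions were scipy 1.17.1 for the tests, numpy 2.4.6 and pandas 2.3.3 for tables, matplotlib 3.10.9 for drawing, and Python 3.11.15.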

Additional observations from a re-analysis of the deposited data

How the results depend on the processing

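With 1 library per group none was left out, and variation between mice was not measured. No paired analysis was possible because each group has 1 library. The limit of depth bears most on Slc27a4 with 27 and 24 reads.

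Of the 8 genes, 3 were called higher and 0 lower under all 4 scalings except median ratio, where Dbi was lost at a log2 ratio of 0.56. In the order sum of the listed genes, TMM, median ratio and upper quartile, the all-gene calls were 1248, 1272, 1135 and 1220 higher and 1165, 1147, 1261 and 1183 lower. The median log2 ratio of the 8 genes was 0.12, 0.13, 0.078 and 0.12 in that order. The sign turned for Fabp2 (-0.17, -0.16, -0.22 and -0.18), Acsl1 (-0.030, -0.023, -0.076 and -0.039) and Acsl5 (-0.034, -0.027, -0.080 and -0.043), as the construction of these scalings, which lower each ratio alike, makes it.

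With a mean of at least 5 TPM, Slc27a4 (log2 ratio -0.56) dropped out and the median of the remaining 7 genes was 0.54. No ratio changed, so the loss of Slc27a4 alone moved this median, and the all-gene median at that mean is not given here. At a fold of 2, 2 of the 8 genes were called higher, and over all genes 1237 higher and 387 lower. By the fold alone, 2941 genes were higher and 1309 lower. With an assumed variation of 10%, 1082 and 336 genes were called, and Cd36, Fabp4 and Dbi remained called. With 40%, 15 and 10 genes were called, and of the 8 only Cd36 (1 gene). The pseudocount and the test of Audic and Claverie changed no call of the 8 genes.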
